A study of Mus musculus with 8 samples.

Results

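The rows described here are 49 microRNA precursors that gave signal in RNA sequencing of mouse gastric epithelial cells. They were taken from the 660 table rows that are RefSeq microRNA genes with symbols starting Mir, as those with a deposited log2 value of 4 or more in at least 4 of 8 libraries. Mir218-1 and Mir218-2 are left out by that rule, although both stood at 4 or more in 4 libraries. The members were chosen by these deposited levels, so levels are given below as a description, without a test.

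The series holds 4 libraries of HFD mice, which received a high fat diet, and 4 of ND mice, the controls, and the study compared the expression profiles of the diets. All 8 libraries came from C57BL/6 stomach, from cells labelled gastric epithelial that had been sorted. The titles number the libraries HFD 22, 23, 26 and 27 and ND 15-17-18, 16, 19 and 20. The labels give no age, sex, diet composition or duration, and do not say whether ND 15-17-18 pools animals 15, 17 and 18 or whether each other library is 1 animal. Each p-value thus rests on the variation among 8 libraries, which may be technical, and in bulk RNA fewer cells of a type and less RNA per cell cannot be told apart.

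A microRNA is transcribed as part of a longer primary transcript, often inside an intron or exon of a host gene. Drosha and Dgcr8 cut the hairpin precursor out of it in the nucleus, Xpo5 carries the hairpin to the cytoplasm, Dicer1 trims it, and an Argonaute protein keeps 1 arm and uses its seed to find target messenger RNAs. The libraries were made from ribosome-depleted total RNA, and a row counts signal at the precursor locus. Primary transcript, hairpin and mature microRNA cannot be told apart in it.

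The mature sequences below are those on which the results turn, from RefSeq on GRCm38.p6 and written 5′ to 3′, with the seed (bases 2 to 8) in capitals. A mature sequence was found for 45 of the 49 members. Together they hold 81 mature sequences with 72 seeds, and 4 seeds are shared by 2 or more members. The largest shared group is let-7, a family known for promoting differentiation, with 6 members whose arms share 1 seed:
mmu-let-7a-5p: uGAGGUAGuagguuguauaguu
mmu-let-7b-5p: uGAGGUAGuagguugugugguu
mmu-let-7c-5p: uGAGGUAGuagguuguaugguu
mmu-let-7d-5p: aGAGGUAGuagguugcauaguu
mmu-let-7i-5p: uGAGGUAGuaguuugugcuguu
Mirlet7c-1 and Mirlet7c-2 give the same let-7c sequence. The 3p arms of Mirlet7a-1, Mirlet7b and Mirlet7c-2 share a second seed. Mir193a and Mir193b share a seed with unlike 3′ ends, and Mir129-1 and Mir129-2 give 1 identical 5p arm:
mmu-miR-193a-3p: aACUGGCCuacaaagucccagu
mmu-miR-193b-3p: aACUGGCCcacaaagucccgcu
mmu-miR-129-5p: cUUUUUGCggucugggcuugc
Seeds were compared among the members only, not with other microRNA rows. The highest rows with a printed arm, and members on the epithelial and squamous lists used further on, carry seeds shared with no other member:
mmu-miR-23a-3p: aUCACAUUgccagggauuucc
mmu-miR-24-3p: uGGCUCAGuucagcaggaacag
mmu-miR-194-5p: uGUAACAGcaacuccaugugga
mmu-miR-192-5p: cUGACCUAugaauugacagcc
mmu-miR-141-3p: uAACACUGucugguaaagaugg
mmu-miR-205-5p: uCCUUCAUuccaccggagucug
The last set is shown because the hairpins of these members resemble part of a messenger RNA, as described further on:
mmu-miR-682: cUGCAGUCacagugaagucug
mmu-miR-692: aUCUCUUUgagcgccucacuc
mmu-miR-703: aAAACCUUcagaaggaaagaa

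Detection was sparse outside these members. Of the 660 microRNA rows, 339 were listed at 0 in every library, 575 reached 4 in no library, and 36 reached it in 1 to 3 libraries. Among the members, 13 stood at 4 or more in all 8 libraries, 16 in exactly 7 and 20 in 4 to 6. Of the 16, 15 were below 4 in ND 15-17-18 alone. No member was at 4 or more in every library of 1 diet and in no library of the other. That pattern was held by Mir218-1 and Mir218-2, which the rule leaves out. Some members still rested mostly on 1 diet. Mir193b reached 4 in HFD 23 and in ND 16, 19 and 20, and Mir1894 in HFD 22, 23 and 27 and in ND 16. Just inside the threshold, by the fourth highest value of the row, lay Mirlet7i at 4.04, Mir425 at 4.10 and Mir129-2 at 4.13. Just outside it lay Mir7-2 at 3.86, Mir200a at 3.86 and Mir1187 at 3.77.

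The libraries differed in ways that touch every row. On the linear scale every library has nearly the same deposited total, but the 20 highest rows took 85.7% of it in ND 15-17-18 and 27.8% to 59.1% in the other libraries. Only 19 members reached 4 in ND 15-17-18, against 37 to 47 in the other 7 libraries, and that library held the lowest deposited value for 38 of the 49 members. Median-ratio scaling sets the typical row equal across libraries among 11115 rows above 30 on the linear scale in every library. It raised ND 15-17-18 by 2.51 log2 units. The median of all rows tested still ran from 6.01 in ND 20 to 6.82 in HFD 23 after it. After scaling, the member median ran from 5.29 to 5.86 in the HFD libraries and from 5.29 to 6.01 in the ND libraries. Differences below are on the log2(value + 1) scale after this scaling unless the deposited scale is named. Markers of the labelled cell type were high, the mean of 5 epithelial genes (Epcam, Cdh1, Krt8, Krt18, Krt19) lying between 14.23 and 14.53 in every library. The mean of 6 smooth muscle genes ran from 8.64 to 9.23 in HFD and from 5.66 to 8.07 in ND (exact permutation p = 0.029). The mean of the chief cell genes Pgc and Cblif ran from 17.95 to 18.49 in HFD and from 16.36 to 17.70 in ND (exact permutation p = 0.029). That p is the smallest that 4 against 4 libraries can give, and no other messenger RNA list reached it. The parietal list differed, HFD minus ND, by -0.17 and the pit and neck mucous list by -0.40 (exact permutation p = 0.57 and 0.086). The part of these lists in the member rows was not tested.

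**Figure D1:**
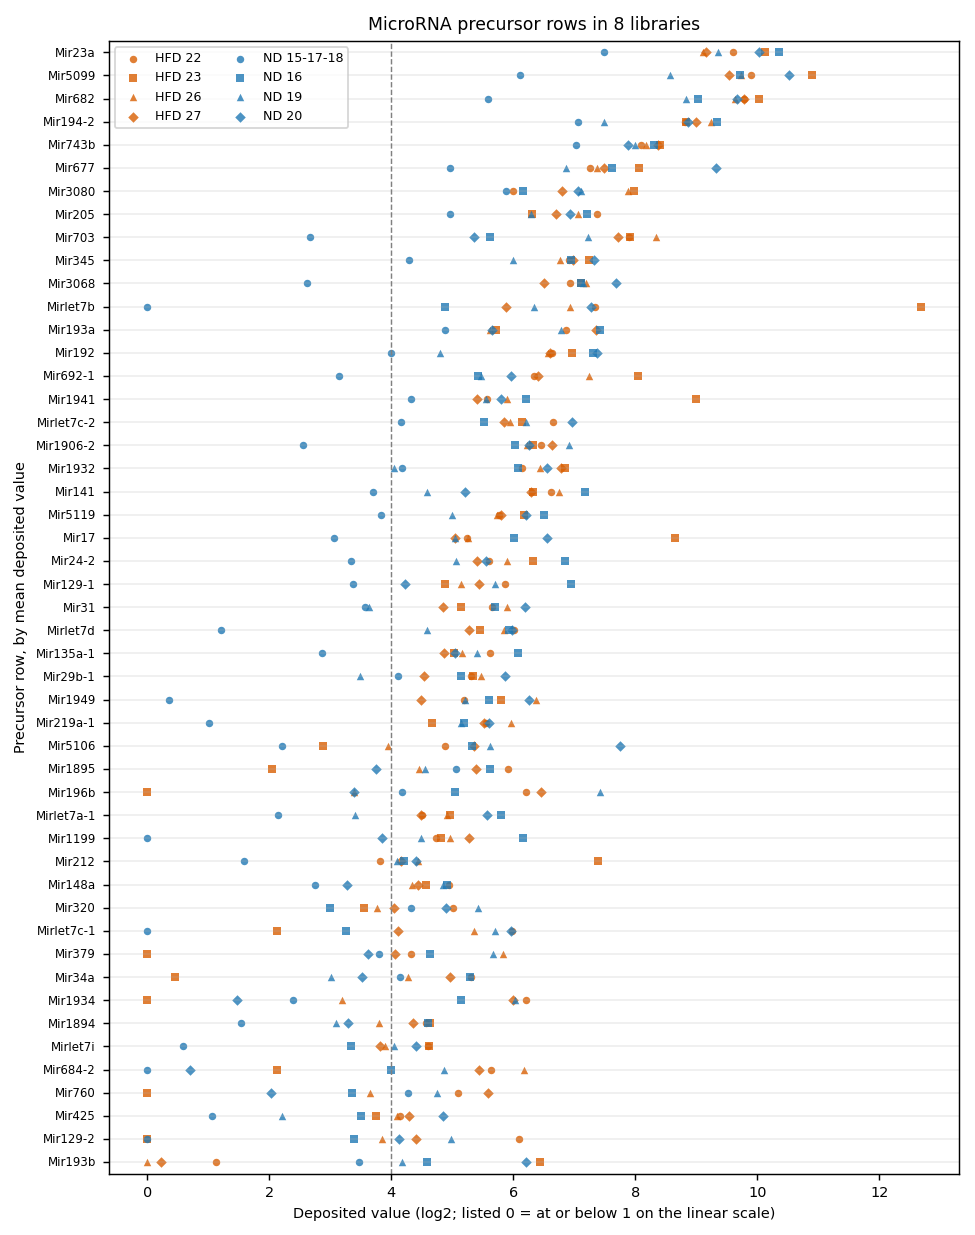
Deposited log2 values (x axis) of the 49 precursor rows (y axis, ordered by mean), with HFD libraries in orange, ND libraries in blue and a dashed line at the value of 4. Most rows span a few log2 units with ND 15-17-18 lowest, and Mirlet7b in HFD 23 stands at 12.68, apart from the other libraries.

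The 8 rows with the highest mean deposited value were Mir23a (9.40), Mir5099 (9.37), Mir682 (9.04), Mir194-2 (8.58), Mir743b (8.03), Mir677 (7.37), Mir3080 (6.86) and Mir205 (6.61). Each of the 8 reached 4 in every library. Per 100 bases of precursor on the linear scale the order began with Mir5099 at 1217, Mirlet7b at 1053, Mir23a at 1035 and Mir682 at 709. Mirlet7b stands there with a single library, HFD 23, at 12.68. Whether the deposited values were already corrected for length is not given in the sources used here.

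Mir23a, at chr8:84208518-84208592 of GRCm38, opens a run of precursors that is transcribed as a unit with Mir27a and Mir24-2. Its deposited values were 9.61, 10.13, 9.11 and 9.16 in HFD 22, 23, 26 and 27, and 7.48, 10.36, 9.35 and 10.02 in ND 15-17-18, 16, 19 and 20. The lowest value was that of ND 15-17-18, and the other 7 libraries of both diets were mixed in order. Mir24-2 lay between 3.35 and 6.85, and Mir27a, the row between them, had a mean of 0.68 and was listed at 0 in 3 libraries.

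Several microRNAs known from epithelium were members. Mir194-2 (chr19:6264643-6264728) and Mir192 (chr19:6264844-6264932), a neighbouring pair known from intestinal and liver epithelium, had mean values of 8.58 and 6.28. Mir141, of the family that represses the mesenchymal factors Zeb1 and Zeb2, had a mean of 5.83, Mir31 of 5.08 and Mir148a of 4.26. Mir24-2, with a mean of 5.51, and Mir23a were also on the epithelial list used here, which does not make them particular to epithelium. With them, 7 of the 19 microRNAs on that list were members, and 1 of the 19, Mir21a, was listed at 0 in every library. Of the lists for other cell types, 6 of 9 muscle and fibroblast microRNAs and 2 of 2 pancreas microRNAs were listed at 0 in every library. Of 4 leukocyte microRNA rows, Mir223 and Mir142 were listed at 0 in every library, while Mir150 had a mean of 3.04 and reached 5.23 in ND 20, and Mir155 reached 5.67 in HFD 23. No microRNA of the muscle, leukocyte, endothelial, pancreas or liver lists was a member. Messenger RNA of some of these cell types was present all the same. After scaling, the mean of 5 fibroblast genes was 9.07 in HFD and 8.77 in ND. That of 4 endothelial genes was 8.14 and 7.46, and that of 7 leukocyte genes 3.77 and 3.10. A low microRNA row thus does not show that a cell type was absent.

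Mir205, a microRNA of squamous and basal epithelia, lies in an exon of a long intergenic noncoding RNA at chr1:193507463-193507530. It stood at 7.31, 6.05, 6.82 and 6.53 in HFD 22, 23, 26 and 27 after scaling, and at 7.49, 6.78, 6.87 and 6.94 in ND 15-17-18, 16, 19 and 20. The diets overlapped. The difference, HFD minus ND, was -0.34 ± 0.31 (SE; limma adjusted p = 0.70), and 0.50 on the deposited scale. It was -0.13 without HFD 23, -0.19 without ND 15-17-18 and -0.56 without HFD 22. The summed squamous messenger RNA markers (Krt5, Krt13, Krt4, Krt14 and Trp63, as their mean log2 level) ran from 8.14 to 9.75 in HFD and from 4.51 to 8.46 in ND, with an exact permutation p of 0.11, and none of the 5 was at 0. Their part in the level of Mir205 was not tested.

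No member passed the test for a difference between the diets. With limma and Benjamini-Hochberg adjustment over 27401 rows, 0 of 49 members were called at an adjusted p of 0.05, where 0.0109% of all rows tested were called, and on the deposited scale again 0 were called against 0.0584% of all rows. At an unadjusted limma p under 0.05 there were 4 members, 2 higher and 2 lower in HFD, which is 8.16% of the members against 10.5% of all rows. The smallest limma adjusted p among the members was 0.29 after scaling and 0.14 on the deposited scale, both for Mir703. The count of 0 covers the members alone: Mir218-1 and Mir218-2 were listed at 0 in the 4 HFD libraries and at 4.42 to 5.87 in the ND libraries. With limma they passed the test as lower before scaling (adjusted p of 0.019 and 0.0092), with differences of -4.96 and -5.36, but missed it once scaled (0.078 and 0.066), where the differences were -5.60 and -6.01.

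The direction of 19 of the 49 members depended on the scaling. After median-ratio scaling 21 differences were above 0 and 28 below, so 42.9% of the members were above 0 against 59.9% of all rows. The member median was -0.08, against 0.12 over all rows tested. On the deposited scale, where the median of all rows shifted to 0.90, 40 members (81.6%) were above 0 against 89.9% of all rows, and the member median was 0.61. The 19 members changed sign between these scales. The member median lay below the all-row median on both scales, and under quantile normalization too (-0.17 against 0.03).

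The precision limits what this comparison could show. The standard errors of the members ran from 0.21 to 2.02 with a median of 0.55, against 0.47 over all rows tested. The 95% interval of a member's difference, without adjustment for the number of rows, had a median half-width of 1.24 log2 units. For a typical member, differences up to that far on either side of the estimate lay within the interval. This width is not the limit for a call, since Mir703 at 1.87 was not called (limma adjusted p = 0.29). Differences ran from -3.10 (Mir193b) to 3.34 (Mirlet7b), and 27 of the 49 lay within 0.5 of 0.

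**Figure D2:**
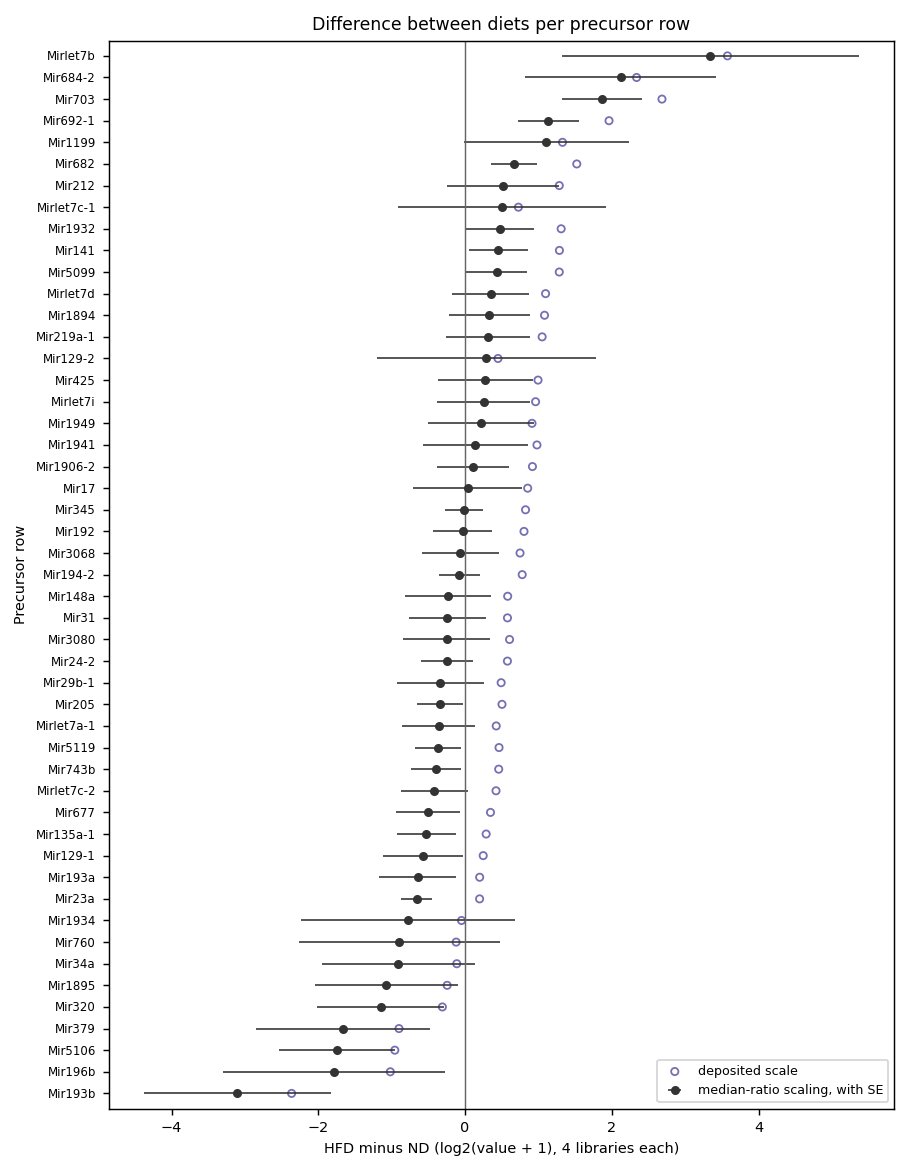
HFD minus ND difference of each precursor row in log2(value + 1), 4 libraries per diet. Filled points with bars are the median-ratio scaled difference and its SE, open circles the deposited scale; the open circles lie to the right of the filled points, and 19 rows change sign between them.

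In 2 members the diets did not overlap after scaling, 1 in each direction, where 4.72% of all rows were separated higher and 3.12% separated lower in HFD. On the deposited scale 2 members (Mir692-1 and Mir703) were separated higher, against 7.82% of all rows, and 0 lower, against 0.106%. Mir692-1 was the higher one after scaling. It stood at 6.28, 7.77, 6.99 and 6.23 in HFD 22, 23, 26 and 27 and at 5.67, 5.01, 6.06 and 5.98 in ND 15-17-18, 16, 19 and 20. The highest ND library lay just below the lowest HFD library. The difference was 1.14 ± 0.42 (SE; limma adjusted p = 0.39; exact two-sided permutation p = 0.029, the smallest that 4 against 4 libraries can give), and it was 0.82 without HFD 23.

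Mir23a was the lower one after scaling. It stood at 9.53, 9.84, 8.85 and 8.97 in HFD 22, 23, 26 and 27, and at 9.99, 9.91, 9.91 and 10.02 in ND 15-17-18, 16, 19 and 20. The ND libraries lay close together and HFD 23 just under them. The difference was -0.66 ± 0.21 (SE; limma adjusted p = 0.32; exact permutation p = 0.029), and on the deposited scale it was 0.20, with the diets overlapping. Its neighbour Mir24-2 differed by -0.25 ± 0.35 (SE; limma adjusted p = 0.81).

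The smallest limma p belonged to Mir703, which is named here after its values were seen. Its HFD libraries stood at 7.83, 7.63, 8.09 and 7.53, and its ND libraries at 5.22 in 15-17-18, 5.20 in 16, 7.79 in 19 and 5.40 in 20. ND 19 lay within the HFD range, and the other 3 ND libraries lay more than 2 log2 units below it. The difference was 1.87 ± 0.54 (SE; limma adjusted p = 0.29), and 2.50 without ND 19. On the deposited scale it was 2.68 (limma adjusted p = 0.14).

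Mir193b and Mir193a share the seed printed above. Mir193b, also named after its values were seen, was at 1.61, 6.18, 0 and 1.02 in HFD 22, 23, 26 and 27, and at 6.01, 4.21, 4.79 and 6.22 in ND 15-17-18, 16, 19 and 20. In HFD it was near the floor in 3 libraries, while HFD 23 lay at the top of the ND range. The difference was -3.10 ± 1.27 (SE; limma adjusted p = 0.44), with no separation of the diets. It was -4.43 without HFD 23 and -1.14 with a pseudocount of 16. Mir193a, from another locus, differed by -0.65 ± 0.53 (SE; limma adjusted p = 0.67), and by 0.20 on the deposited scale.

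The 6 let-7 members did not move as 1 group. Mirlet7b had the highest difference of all members at 3.34 ± 2.02 (SE; limma adjusted p = 0.59), Mirlet7c-1 was at 0.50, Mirlet7d at 0.35 and Mirlet7i at 0.25, and Mirlet7a-1 at -0.36 and Mirlet7c-2 at -0.42. None passed the test, and on the deposited scale all 6 were above 0, as most rows were. For the other shared seed, Mir129-1 differed by -0.58 ± 0.55 and Mir129-2 by 0.29 ± 1.49 (SE; limma adjusted p = 0.71 and 0.95). On the deposited scale both were above 0.

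The value of Mirlet7b rested on single libraries. Its deposited values were 7.34, 12.68, 6.93 and 5.88 in HFD 22, 23, 26 and 27, and 0, 4.89, 6.34 and 7.27 in ND 15-17-18, 16, 19 and 20. HFD 23 alone lay far above the rest, and ND 15-17-18 alone was listed at 0. Without HFD 23 the difference was 1.88, and without ND 15-17-18 it was 1.79. Mirlet7c-2, which precedes it on chromosome 15 (chr15:85706603-85706697, with Mirlet7b at chr15:85707319-85707403) in an exon of the same noncoding transcript, stood at 6.14 in HFD 23, between the 5.84 of HFD 27 and the 6.66 of HFD 22.

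HFD 23 stood apart for other members as well. After scaling, Mir17 was at 8.38 there and at 4.89 to 5.21 in the other HFD libraries, Mir1941 at 8.71 against 5.26 to 5.66, and Mir212 at 7.12 against 3.85 to 4.26. In the same library 5 members were listed at 0, namely Mir129-2, Mir196b, Mir379, Mir760 and Mir1934. ND 15-17-18 also listed 5 members at 0. Over the whole table, HFD 23 listed 13525 rows at 0, against 10047 to 12451 in the other HFD libraries. Of 34 genes that make or use microRNAs, 12 were highest of the 8 libraries in HFD 23 and 5 lowest. In HFD 23, 3 of them (Drosha, Xrn2 and Ago2) stood more than 1 log2 unit above every other library. No all-row share was computed for these counts. Drosha stood at 12.48 in HFD 23 and at 10.12 to 10.34 in the other HFD libraries. Dgcr8, its partner, stood at 9.24 against 9.34 to 9.45, and Dicer1 at 12.23 against 10.40 to 10.76. Ago2, which holds the mature strand, stood at 13.15 against 10.89 to 11.16. Without HFD 23 the difference between diets moved from 0.03 to -0.80 for Mir17, from 0.14 to -0.67 for Mir1941 and from 0.51 to -0.25 for Mir212. Of the 5 members listed at 0 there, Mir760 moved from -0.90 to 0.27, Mir1934 from -0.78 to 0.48, Mir196b from -1.79 to -0.48, Mir379 from -1.67 to -0.51 and Mir129-2 from 0.29 to 1.46. On the deposited scale with all libraries Mir17, Mir1941, Mir212 and Mir129-2 were above 0 and the other 4 below. None of these 8 passed the test with or without that library.

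Neighbouring precursors on 1 strand, within 10 kb of each other, were compared next, a distance set after values were seen. There were 13 such runs with a member, holding 17 members and 62 other rows. Of the other rows, 38 were listed at 0 in every library, as were 339 of all 660 microRNA rows. Their highest mean was 1.99, that of Mir300. The other rows had missed the threshold for members, so their lower level was fixed by the choice of members. Precursors of 1 run are usually cut from 1 primary transcript, and here the deposited levels within a run were unequal. In the 5 runs of 3 or more rows there were 7 members, and 6 of them were the first or the last row of their run. Mir743b, in an X-linked run known from testis, was the exception. Mir23a, Mir24-2, Mirlet7a-1 and Mirlet7d lay in runs of 3 rows, where only the middle row is not an end. The count of ends was not tested.

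Mir17 opens the run Mir17, Mir18, Mir19a, Mir20a, Mir19b-1 and Mir92-1 inside the noncoding host Mir17hg. Its mean was 5.61, while Mir18 had a mean of 0.88 and Mir20a of 0.52. Mir20a reached 4.08 in HFD 23 and at most 0.05 elsewhere. In that library the host row Mir17hg stood at 5.20 after scaling, within its range of 4.23 to 5.36 over the HFD libraries, while Mir17 stood at 8.38. Mirlet7a-1 and Mirlet7d, the ends of another run, had means of 4.47 and 5.04, and Mirlet7f-1 between them had a mean of 0.61.

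Mir141 and Mir200c, a pair known from epithelium, were as unequal. Mir141 had a mean of 5.83 and Mir200c of 0.73, with Mir200c listed at 0 in 4 libraries. The pair on chromosome 19 was closer, Mir194-2 exceeding Mir192 in every library. Their differences between diets were -0.08 ± 0.28 and -0.03 ± 0.40 (SE; limma adjusted p = 0.93 and 0.98), and both were above 0 on the deposited scale.

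**Figure D3:**
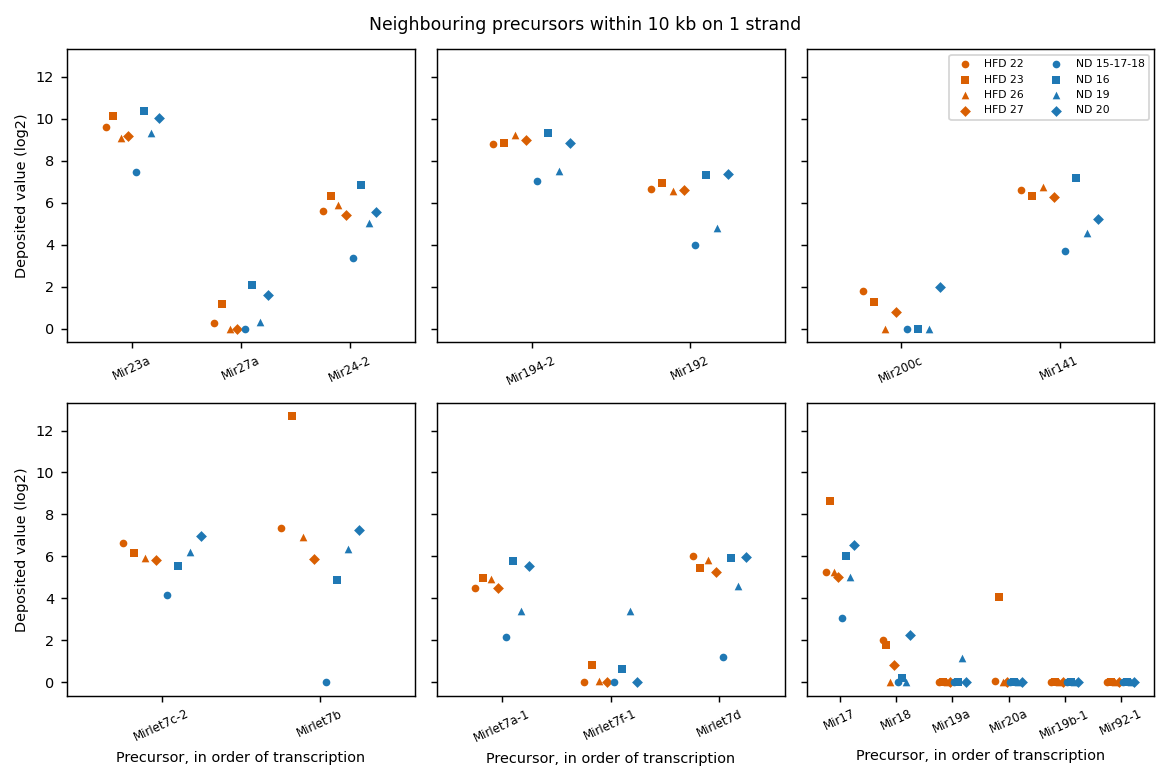
Deposited log2 values (y axis) in 8 libraries for 6 runs of neighbouring precursors, each in order of transcription (x axis), HFD libraries in orange and ND in blue. Mir27a, Mir200c, Mirlet7f-1 and the rows after Mir17 have means of at most 0.88, with single libraries up to 4.08 (Mir20a in HFD 23), beside members at means of 4.47 to 9.40.

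By position, 32 of the 49 members lay inside a gene on their own strand, 12 of them in a protein-coding gene and 20 in noncoding genes or pseudogenes only. Of the 32, 19 lay in an exon. Another 15 lay in no gene, 1 only in a gene on the opposite strand (Mir703, in an intron of Cfap299), and 1 in a gene whose strand was not known here (Mir148a, in Gm38821). Among all 49, 3 overlapped a record of a small nucleolar RNA (Mir677, Mir3068 and Mir1949). Whether reads were counted by strand is not given in the sources used here, so signal of a member and of a gene that overlaps it cannot be told apart.

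For 15 members the host gene had a row that could be tested. None of the 15 hosts was called by limma, and host differences ran from -0.56 to 1.64. Member and host differed in the same direction in 7 of 15, and in 12 of 15 on the deposited scale, where most rows are above 0. With hosts on either strand the count was 10 of 20.

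Mir5106 was among the lowest differences. It stood at 4.84, 2.82, 3.80 and 5.20 in HFD 22, 23, 26 and 27 and at 4.78, 4.92, 6.20 and 7.75 in ND 15-17-18, 16, 19 and 20. Its diets overlapped, with a difference of -1.75 ± 0.79 (SE; limma adjusted p = 0.48).

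Mir677 lies in an intron of Atp5b, a subunit of the mitochondrial ATP synthase, at chr10:128085286-128085363. It stood at 7.12 to 7.78 in the HFD libraries and at 7.18 to 7.48 in 3 ND libraries, with ND 20 at 9.32. Its difference was -0.50 ± 0.43 (SE; limma adjusted p = 0.69), while Atp5b differed by 0.11 ± 0.18, and both were above 0 on the deposited scale. Without ND 20 the difference of Mir677 was -0.01.

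Mir3080, in an intron of the transcription coregulator gene Tcf20, differed by -0.25 ± 0.59 and its host by -0.12 ± 0.13. Mir196b lies in an exon of Hoxa9, a homeobox gene, and the pair went opposite ways: the member differed by -1.79 ± 1.51 and the host by 1.64 ± 1.41. Hoxa9 stood at 2.12 to 3.43 in HFD 22, 26 and 27 and was higher in HFD 23 than in any other library, and Mir196b was listed at 0 in HFD 23. None of these differences passed the test.

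**Figure D4:**
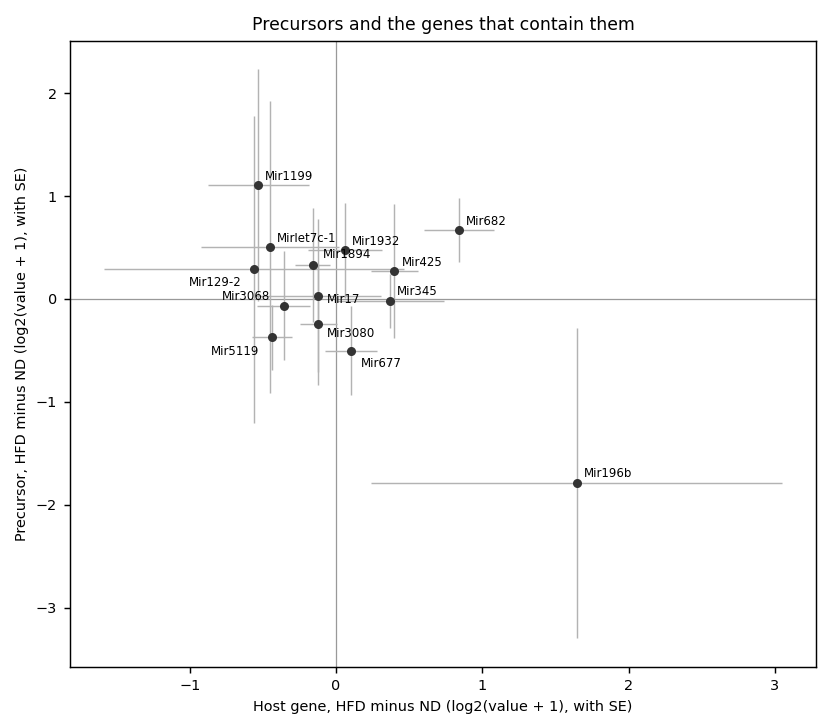
HFD minus ND difference of the host gene (x axis) against that of the precursor (y axis) for 14 pairs, both in log2(value + 1) after median-ratio scaling, with SE bars. The signs match in 6 of these 14 pairs, and most bars reach 0 on at least 1 axis.

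Some members have hairpins that nearly equal part of a messenger RNA. The 45 hairpins available were matched to annotated transcripts outside their own locus, at 90% identity or more over at least 40 bases, limits set after values were seen. A protein-coding transcript matched for 3 members (6.67%), against 13 of 482 hairpins of the other microRNA rows (2.70%). The mature arm itself was found whole in a protein-coding transcript elsewhere for 4 of 45 members (Mir682, Mir692-1, Mir703 and Mir24-2). The same held for 7 of 509 other rows with a mature sequence. For Mir24-2 only the arm matched, in 2010111I01Rik, and its hairpin had no match within the limits above. Reads from such a messenger RNA could be assigned to either row, depending on how the authors treated multiple matches, which is not given in the sources used here. The values of these members are therefore uncertain.

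Mir682 (chr13:75645046-75645141) lies in an exon of Gm4149, a processed pseudogene, and its hairpin matched Rpl37a, a protein of the large ribosomal subunit, at 99.0% identity over 96 bases. It stood at 9.71, 9.74, 9.38 and 9.59 in HFD 22, 23, 26 and 27 and at 8.10, 8.59, 9.40 and 9.67 in ND 15-17-18, 16, 19 and 20. ND 19 and ND 20 lay within the HFD range. The difference was 0.67 ± 0.31 (SE; limma adjusted p = 0.49), or 0.39 without ND 15-17-18, and those of Gm4149 and Rpl37a were 0.84 ± 0.24 and 1.11 ± 0.34 (SE; limma adjusted p = 0.28 and 0.31).

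The hairpin of Mir692-1 (chr17:6895229-6895337) matched the ferritin light chain gene Ftl1 at 94.6% over 111 aligned positions and Ftl1-ps1 at 96.4%. Ftl1 differed by 0.07 ± 0.17 and Ftl1-ps1 by 0.28 ± 0.12 (SE; limma adjusted p = 0.89 and 0.43). The hairpin of Mir703 (chr5:98475556-98475664) matched Eef1a1, the translation elongation factor, at 98.2% over 109 bases. Eef1a1 differed by 0.16 ± 0.16 (SE; limma adjusted p = 0.71), and its scaled values lay between 14.83 and 15.59 in every library. The part of these genes in the member rows was not tested.

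**Figure D5:**
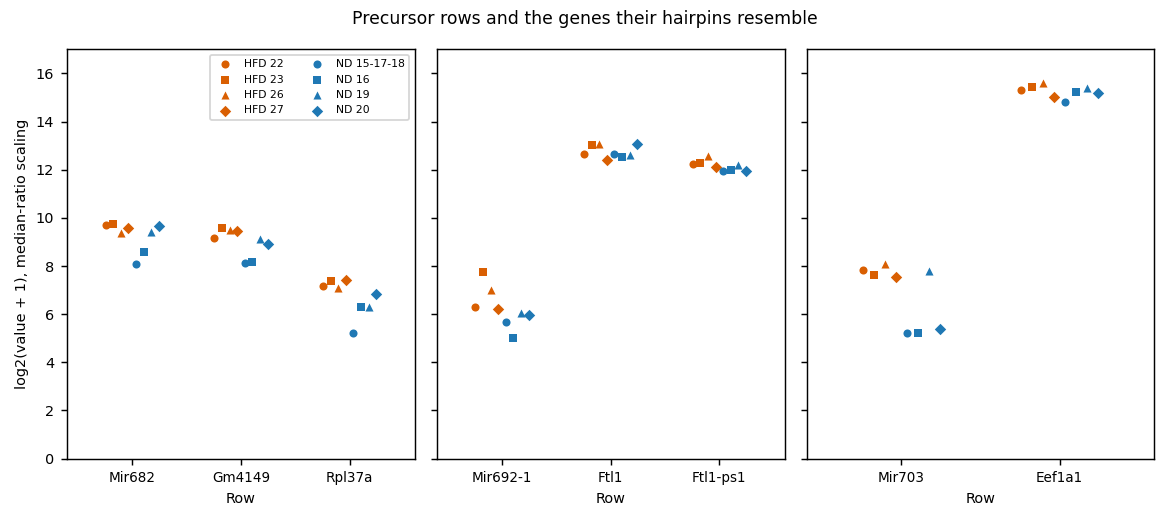
Scaled log2(value + 1) levels (y axis) in 8 libraries for Mir682, Mir692-1 and Mir703, each beside genes that its hairpin resembles (x axis), HFD libraries in orange and ND in blue. Mir703 lies about 2 log2 units lower in 3 ND libraries than in HFD, where Eef1a1 lies between 14.83 and 15.25.

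The genes that make and use microRNAs were read from a list of 34, all of which could be tested. None was called by limma in either direction, where 0.0109% of all rows were, and 6 (17.6%) had an unadjusted p under 0.05, against 10.5% of all rows. There were 17 differences above 0 and 17 below, with a median of 0.01. After scaling the diets did not overlap for 5 of the 34 genes that were lower in HFD (Smad4, Tut7, Qk, Ago4 and Ago1). They did not overlap for 1 that was higher (Trp53). Of all rows tested, 3.12% were separated lower and 4.72% separated higher in HFD. On the deposited scale all 34 were above 0 and their median was 0.87, against 0.90 for all rows.

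The 4 with the smallest p were Trp53, Tut4, Smad4 and Ago3. Trp53, a tumour suppressor that also aids precursor processing, differed by 0.40 ± 0.12 (SE; limma adjusted p = 0.29). Tut4, which adds uridines to let-7 precursors, differed by -0.61 ± 0.19 (SE; limma adjusted p = 0.31). Smad4 differed by -0.26 ± 0.10 and the Argonaute gene Ago3 by -0.43 ± 0.17 (SE; limma adjusted p = 0.42 and 0.43), and the latter 3 were above 0 on the deposited scale.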

How the data were processed

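The 8 deposited tables, 1 per library, each hold 1 value per row for 38920 rows. The values deposited by the authors are on a log2 scale as far as the tables show, since raising 2 to them gives column sums that are nearly equal between libraries. A listed 0 was taken as 0. The submitters' processing notes name the build mm10 and bedtools 2.17.0. The aligner, annotation, strand setting and normalization were each not given in the sources used here. Read depth is unknown, so no counting interval is given. Row identifiers were matched to RefSeq GRCm38.p6 (32891 matched).

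Values were scaled by median ratios over 11115 rows above 30 on the linear scale in every library. limma 3.58.1 (R 4.3.3, with trend and robust) compared 4 HFD with 4 ND libraries on log2(value + 1), over 27401 rows at 1 or more in at least 4 libraries, with Benjamini-Hochberg adjustment. Exact permutation tests used all 70 divisions of the libraries. A host was a gene of the same strand containing the precursor with a row in the tables (GENCODE vM21 or RefSeq), protein-coding first and then the longest, and blastn 2.17.0 matched hairpins to transcripts. Alternatives were the deposited scale, quantile normalization, pseudocount 16, no or a stricter filter, plain limma, each library left out, and other member and host rules.

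Members named with values were those whose diets did not overlap (at most 8 per direction, by limma p), the 8 highest by mean, members on the tissue lists, members sharing a seed, the 3 on either side of the threshold, and their hosts. Mir17, Mir196b, Mir212, Mir379, Mir703, Mir760, Mir1934, Mir1941 and Mir5106 were named after their values were seen. The members, gene lists and tests were chosen with earlier results of these data known. The values of 1 host gene are not reported here.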

Additional observations from a re-analysis of the deposited data

Results flagged for a closer look

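In 7 of 98 groups of 4 libraries (49 members in 2 diets), 1 library lay far from the other 3 after scaling, by Dixon's test at the 95% level. Chance flags about 1 in 20 groups. In HFD 23, Mir17 stood at 8.38, Mir1941 at 8.71 and Mir212 at 7.12, each above the other HFD libraries. In ND 20, Mir677 stood at 9.32 and Mir17 at 6.57, above the other ND libraries. Mir703 in ND 19 stood at 7.79, where the other ND libraries ran from 5.20 to 5.40. Mirlet7c-2 in ND 16 stood at 5.11, below the 6.68 to 6.97 of the other ND libraries.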

How the results depend on the processing

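No member and no gene of the processing list was called under any alternative, and leaving out 1 library gave 0 throughout. The member median was 0.61 on the deposited scale, -0.25 with members at 4 or more in all 8 libraries, and -0.14 to 0.0036 with 1 library left out, the highest without ND 20. Member and host shared a direction in 7 of 15 pairs, in 12 on the deposited scale, in 6 to 10 with 1 library left out, in 12 of 21 with members at 3 or more, and in 3 of 5 with members at 4 or more in all 8 libraries. Between 16 and 25 members were above 0 with 1 library left out (16 without ND 15-17-18, 25 without ND 20). In those fits 2 to 6 members had an unadjusted limma p under 0.05. At that p over all rows, the fewest were 2080 of 26525 (without HFD 22) and the most 3579 of 26943 (without ND 19). Of the members, 1 to 4 were separated lower and 1 or 2 higher, counts for which no all-row share was computed. Separation is easier to reach with 3 libraries on 1 side, so these counts cannot be compared with those of all 8 libraries. For 17 named members and 14 alternatives each, 220 of 238 values kept direction and side. The 14 include no filter, the stricter filter and plain limma, which cannot change a row's difference. Agreement under these settings was fixed in advance and is counted in the 220. The deposited scale reversed 10 members, to 0.20 for Mir23a, 0.78 for Mir194-2, 0.46 for Mir743b, 0.35 for Mir677, 0.61 for Mir3080, 0.50 for Mir205, 0.80 for Mir192, 0.58 for Mir24-2, 0.58 for Mir31 and 0.58 for Mir148a. With 1 library left out the range crossed 0 for Mir194-2 (-0.34 to 0.16), Mir3080 (-0.74 to 0.14), Mir192 (-0.42 to 0.25), Mir31 (-0.64 to 0.0036) and Mir148a (-0.65 to 0.030). It kept its sign but moved by over 1.5 times for Mir682 (0.39 to 0.91), Mir205 (-0.56 to -0.13) and Mir24-2 (-0.39 to -0.07), among others. The cause was not tested. No paired analysis was possible because the diets share no library numbers. Read depth is unknown, so its effect on low rows could not be measured.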
